A study of Rattus norvegicus with 4 samples.

Results

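The sarcoplasmic reticulum is the calcium store of the heart muscle cell. At each beat, calcium entering through surface channels opens the ryanodine receptor RYR2, the store empties into the cytosol and the cell contracts. The pump SERCA2 then refills the store, and small membrane proteins set how fast it works. Genes of this system were chosen by exact symbol from the gene names in the count tables, and all 10 listed symbols were found once each among 22250 genes. They are Ryr2, Casq2, Trdn, Asph and Jph2 of the release site, Atp2a2, Pln and Sln of the pump, and Hrc and S100a1, which act on both release and uptake.

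The values are described as ribosome footprints, the stretches of mRNA that a translating ribosome shields from nuclease, while the molecule is labelled polyA RNA. They came from ventricular cardiomyocytes of Wistar rats aged 1 to 2 days, isolated by trypsin digestion and a Percoll gradient. A pair of libraries was made from cells given control siRNA and another pair from cells given siRNA against Cpeb4, which encodes an RNA-binding protein that regulates poly(A) tails and translation, for 72 h. The growth protocol, given in the same words for every sample, also names 24 h of the mTOR inhibitor Torin1 at 250 nM, and the labels do not tie it to particular libraries. Whether replicates were separate cultures is not stated, so a p-value here reflects the spread between libraries alone, which may be technical. Without matched RNA-seq, a lower footprint level cannot be told apart from less mRNA, and fewer cells of a type cannot be told apart from less RNA per cell.

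Between 3554011 and 5910911 footprints fell in genes per library. The target Cpeb4 had 351 and 253 footprints in the controls and 40 and 59 after its siRNA, and it had the smallest p of all genes. Defining genes of the labelled cell type were abundant, with 11 of the 12 cardiomyocyte markers matched to 1 gene each and their summed level between 56620 and 65430 CPM (counts scaled to the library total of gene footprints). Ventricular markers summed to between 9495 and 10817 CPM. Footprints of siCpeb4 replicate 2 were kept at 29 to 33 nt, where the other 3 libraries were kept at 29 to 34 nt. The part of that difference in the results was not tested.

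Most of the calcium store's machinery showed no change that passed the test. Of the 10 genes, 2 fell after Cpeb4 siRNA, none rose and 8 did not pass, in a fit of all 11335 genes with enough counts (edgeR quasi-likelihood test, Benjamini-Hochberg adjusted p under 0.05). The genes that fell were sarcolipin, Sln, and the calcium-binding protein gene S100a1. In the same fit 3.41% of all genes were called, 1.87% as lower and 1.54% as higher. All 10 genes passed the low-count filter. Their median log2 fold change was -0.09, beside 0.00 over all genes tested, with 8 of the 10 negative. Both calls lay close to the threshold. With the library total alone as the scaling, the log2 fold changes were -0.70 for Sln and -0.46 for S100a1, beside -0.73 and -0.49, and neither gene passed (edgeR adjusted p = 0.0523 and 0.0744). Neither passed in DESeq2 (adjusted p = 0.143 and 0.223), whereas both passed with RLE size factors in edgeR (adjusted p = 0.0336 and 0.0466).

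**Figure D1:**
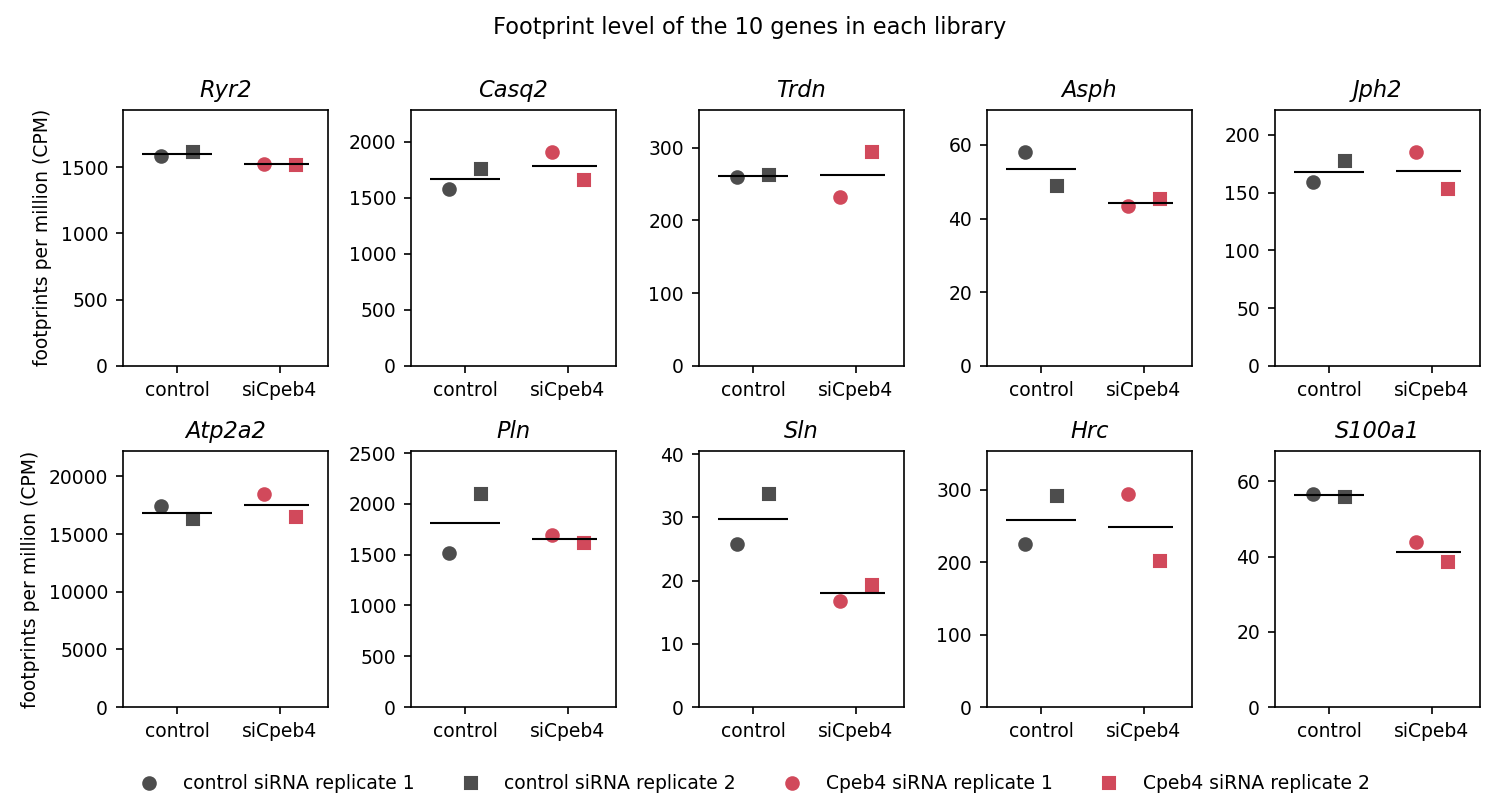
Footprint level (CPM, counts scaled to the library total, vertical axis from 0) of each of the 10 genes in the 4 libraries, with circles for replicate 1, squares for replicate 2, grey for control siRNA, red for Cpeb4 siRNA and a line at each group mean. Sln lay at 25.8 and 33.8 CPM in controls and at 16.8 and 19.3 after siRNA, while Hrc had 1 high and 1 low library in each group.

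Taken as a whole, the 10 genes held 2.29% and 2.26% of the gene footprints in control replicates 1 and 2, and 2.45% and 2.20% in siCpeb4 replicates 1 and 2. The groups overlapped in this share, with siCpeb4 replicate 1 highest and siCpeb4 replicate 2 lowest. Coding lengths were not used here, so no gene's level is set against another gene's.

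Ryr2 encodes the ryanodine receptor, the channel through which the store empties. Its level was 1585 and 1612 CPM in controls and 1528 and 1517 CPM after Cpeb4 siRNA. Both siCpeb4 libraries lay below both controls, by a small margin. The log2 fold change was -0.10 ± 0.10 (SE), which did not pass (edgeR adjusted p = 0.675), and the 95% interval of the fold ran from 0.811 to 1.07.

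Casq2 encodes calsequestrin, the protein that buffers calcium inside the store. It had 1578 and 1754 CPM in controls and 1903 and 1657 CPM after siRNA, so that the groups overlapped. Its log2 fold change was 0.07 ± 0.11 (SE; edgeR adjusted p = 0.826). The sign turned when replicate 1 of the control or of the siCpeb4 group was left out, to -0.02 and -0.05.

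Triadin, encoded by Trdn, anchors calsequestrin to the ryanodine receptor. Trdn had 259.7 and 262.5 CPM in controls, against 232 and 293 CPM after siRNA. The 2 siCpeb4 libraries lay on either side of the controls. The log2 fold change was -0.02 ± 0.11 (SE; edgeR adjusted p = 0.956) and turned to 0.01 with the library total as the scaling.

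Asph encodes junctin, a partner of triadin, as well as junctate and the enzyme aspartate beta-hydroxylase, which a count per gene cannot separate. Its level was 58.0 and 49.0 CPM in controls and 43.4 and 45.3 CPM after siRNA, with both siCpeb4 libraries below both controls. Asph did not pass, with a log2 fold change of -0.31 ± 0.13 (SE; edgeR adjusted p = 0.251). Only 174 to 340 footprints per library lay behind these values. Without control replicate 1 the log2 fold change was -0.18. In the RefSeq annotation Asph overlaps another coding gene, Clvs1. Without a stated strand setting, the reads of Asph are therefore uncertain.

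Junctophilin 2, the product of Jph2, ties the store to the surface membrane so that surface channels and ryanodine receptors face each other. Jph2 had 159 and 177 CPM in controls and 185 and 153 CPM after siRNA. The highest and the lowest value both came from siCpeb4 libraries. Its log2 fold change was -0.02 ± 0.12 (SE; edgeR adjusted p = 0.958), and it was 0.01 with the library total as the scaling.

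Atp2a2, the SERCA2 gene, had between 57814 and 102321 footprints per library. Its level was 17449 and 16267 CPM in controls and 18519.8 and 16451 CPM after Cpeb4 siRNA. The groups overlapped, and the difference between the siCpeb4 libraries was larger than that between the group means of 16858 ± 836 and 17485 ± 1463 CPM (SD, n = 2). This gave a log2 fold change of 0.02 ± 0.11 (SE; edgeR adjusted p = 0.944). The 95% interval of the fold was 0.872 to 1.19.

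Phospholamban, the product of Pln, is a small membrane protein that slows SERCA2 until it is phosphorylated. Pln had 1512 and 2102 CPM in controls and 1690 and 1610 CPM after siRNA. Control replicate 2 stood highest and control replicate 1 lowest, with both siCpeb4 libraries between them. Its log2 fold change was -0.16 ± 0.12 (SE) and did not pass (edgeR adjusted p = 0.574). Control replicate 2 set the sign: the value was 0.11 without it and -0.39 without control replicate 1. In the RefSeq annotation (GRCr8) Pln lies within the span of Cep85l. Without a stated strand setting, reads of overlapping genes are uncertain, though Cep85l had only 44 to 95 footprints per library against 7469 to 9517 for Pln.

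Sarcolipin, the product of Sln, is a relative of phospholamban that also acts on the pump, and in adult rodents it is made mainly in the atria. Sln had 151 and 120 footprints in controls and 82 and 114 after Cpeb4 siRNA. Scaled to the library, that was 25.8 and 33.8 CPM against 16.8 and 19.3 CPM, with no overlap between the groups. The mean of Sln fell from 29.8 ± 5.67 CPM to 18.0 ± 1.78 CPM (SD, n = 2), and the fitted log2 change was -0.73 ± 0.19 (SE; edgeR adjusted p = 0.0333). The fitted fold was 0.604, with a 95% interval of 0.461 to 0.793.

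The Sln call rested on few footprints and on single libraries. With 1 library left out, edgeR adjusted p was 0.322 without control replicate 2, 0.125 without siCpeb4 replicate 1 and 0.0855 without siCpeb4 replicate 2. It was 0.0144 without control replicate 1. The log2 fold change stayed negative in these 4 fits, between -0.94 and -0.53.

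Hrc encodes the histidine-rich calcium binding protein of the store's lumen, which interacts with both SERCA2 and triadin. It had 225 and 291 CPM in controls and 295 and 202 CPM after siRNA. Each group held 1 high and 1 low library, so that the spread within groups exceeded the difference between them. Hrc had a log2 fold change of -0.08 ± 0.15 (SE; edgeR adjusted p = 0.848) and ranged from -0.39 to 0.18 with 1 library left out.

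S100a1 encodes a calcium sensor of heart muscle that is known to raise both SERCA2 activity and calcium release. It had 333 and 199 footprints in controls and 214 and 228 after Cpeb4 siRNA. These were 56.8 and 56.0 CPM in controls, which lay close together, and 43.8 and 38.6 CPM after siRNA. S100a1 fell from a mean of 56.4 ± 0.562 CPM to 41.2 ± 3.67 CPM (SD, n = 2), with a log2 fold change of -0.49 ± 0.13 (SE; edgeR adjusted p = 0.0471). The fitted fold was 0.714, with a 95% interval of 0.588 to 0.866.

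This call was at the edge of the threshold. S100a1 did not pass without control replicate 1 (edgeR adjusted p = 0.24), control replicate 2 (0.158) or siCpeb4 replicate 2 (0.249). It passed without siCpeb4 replicate 1 (0.0419). Its log2 fold change lay between -0.59 and -0.38 in these fits. Limma-voom gave an adjusted p of 0.0539 and upper-quartile scaling in edgeR one of 0.0534.

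**Figure D2:**
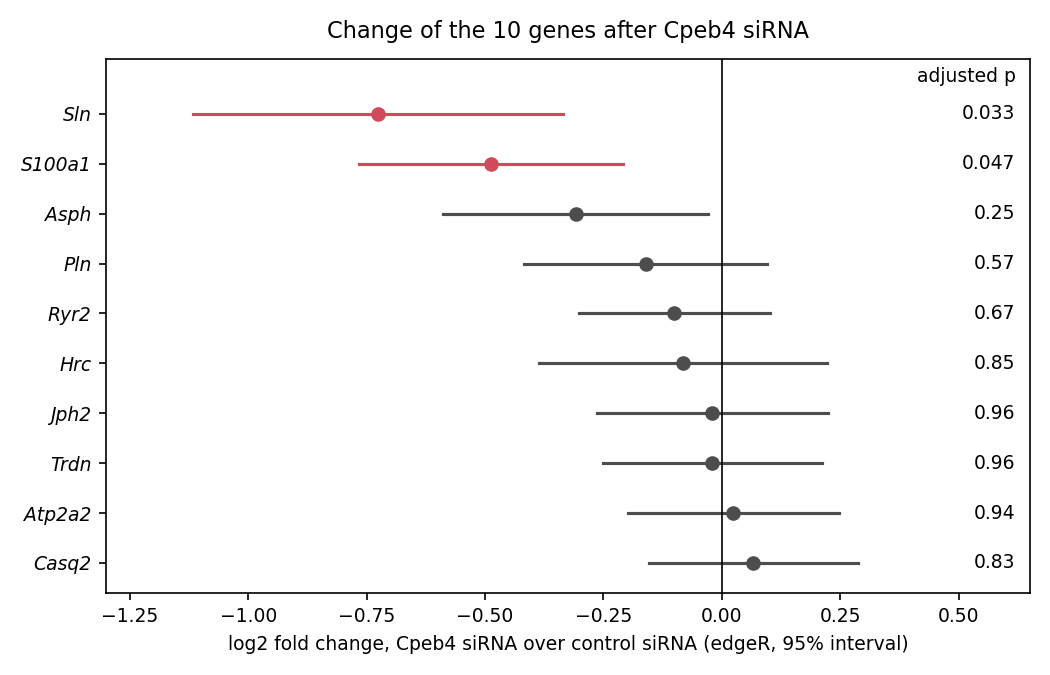
Log2 fold change of each gene after Cpeb4 siRNA (horizontal axis; points, with 95% intervals from the edgeR fit of all genes as lines) and its adjusted p at the right, with the called genes in red. Sln at -0.73 and S100a1 at -0.49 passed, and the other 8 genes lay between -0.31 and 0.07.

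Levels of 4 genes, Ryr2, Asph, Sln and S100a1, were lower in both siCpeb4 libraries than in both controls, and no gene was higher in both. Over all genes tested, 19.5% were lower and 26.5% higher in this way, 46% in all. An unadjusted p under 0.05 was found for 3 of the 10 genes and for 16.1% of all genes tested (edgeR). For the 8 genes that did not pass, the 95% intervals of the fold reached down to 0.665 for Asph and up to 1.22 for Casq2.

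**Figure D3:**
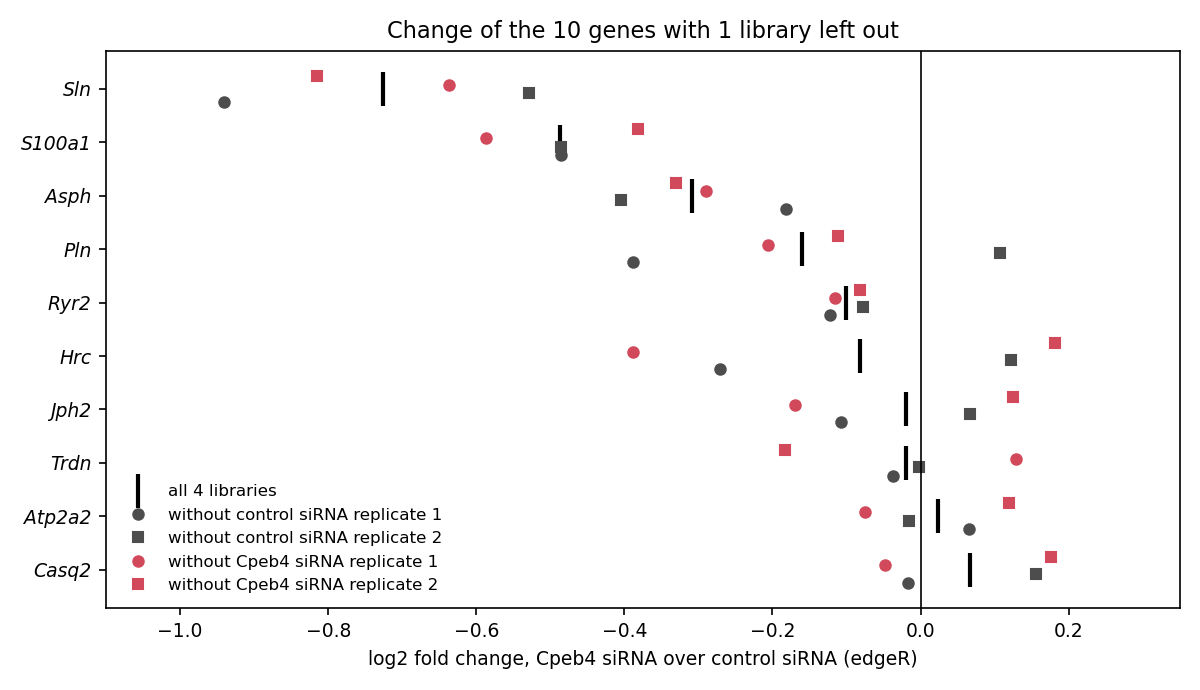
Log2 fold change of each gene (horizontal axis) with all 4 libraries (vertical tick) and with 1 library left out (circles and squares for replicates 1 and 2, grey for control, red for Cpeb4 siRNA; edgeR). Sln, S100a1, Asph and Ryr2 stayed below 0 in all 4 fits, and each of the other 6 genes crossed 0 in at least 1.

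Ratios of footprints within a library do not depend on how libraries are scaled to each other. A total of 10 ratios was computed. With 2 libraries against 2, the exact permutation test cannot give a two-sided p below 0.333, so no ratio could pass. Intervals of single libraries are exact 95% intervals for counting error only, since reads without molecular identifiers are not independent molecules.

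The ratio of phospholamban to pump footprints showed no separation of the groups. Per 1000 Atp2a2 footprints there were 86.6 and 129 Pln footprints in controls and 91.2 and 97.9 after Cpeb4 siRNA. Control replicate 2 stood apart from the other 3 libraries, and its interval of 126 to 132 lay far from that of control replicate 1, 84.8 to 88.5. The mean fell from 108 ± 30.1 to 94.6 ± 4.69 per 1000 (SD, n = 2), but the log2 difference between groups of -0.16 was smaller than the -0.58 between the controls (exact permutation p = 1.0). Without control replicate 2 the log2 difference was 0.13.

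For sarcolipin the ratio to the pump was lower in both siCpeb4 libraries. Controls had 1.48 and 2.08 Sln footprints per 1000 of Atp2a2, with intervals of 1.25 to 1.73 and 1.72 to 2.48. The siCpeb4 libraries had 0.906 and 1.17, with intervals of 0.720 to 1.12 and 0.967 to 1.41. The groups did not overlap, although the intervals of control replicate 1 and siCpeb4 replicate 2 did. The log2 difference was -0.76, a ratio 0.589 times that of controls (exact permutation p = 0.333, and 0.556 adjusted over the 10 ratios). It lay between -1.01 and -0.52 with 1 library left out.

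Set against phospholamban, the controls were closer together. Per 1000 Pln footprints there were 17.0 and 16.1 of Sln in controls and 9.92 and 12.0 after siRNA. The log2 difference was -0.60, against 0.08 from control replicate 2 to replicate 1 and -0.27 from siCpeb4 replicate 2 to replicate 1 (exact permutation p = 0.333).

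S100a1 against the pump had the tightest replicates of the 10 ratios. There were 3.25 and 3.44 S100a1 footprints per 1000 of Atp2a2 in controls and 2.36 and 2.34 after siRNA. The counting intervals of the controls began at 2.91 and 2.98 and those of the siCpeb4 libraries ended at 2.703 and 2.67, so that none overlapped between groups. The log2 difference was -0.51 (exact permutation p = 0.333). Against Ryr2, the channel that S100A1 also binds, it was -0.39, from 35.8 and 34.7 per 1000 in controls to 28.7 and 25.4.

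**Figure D4:**
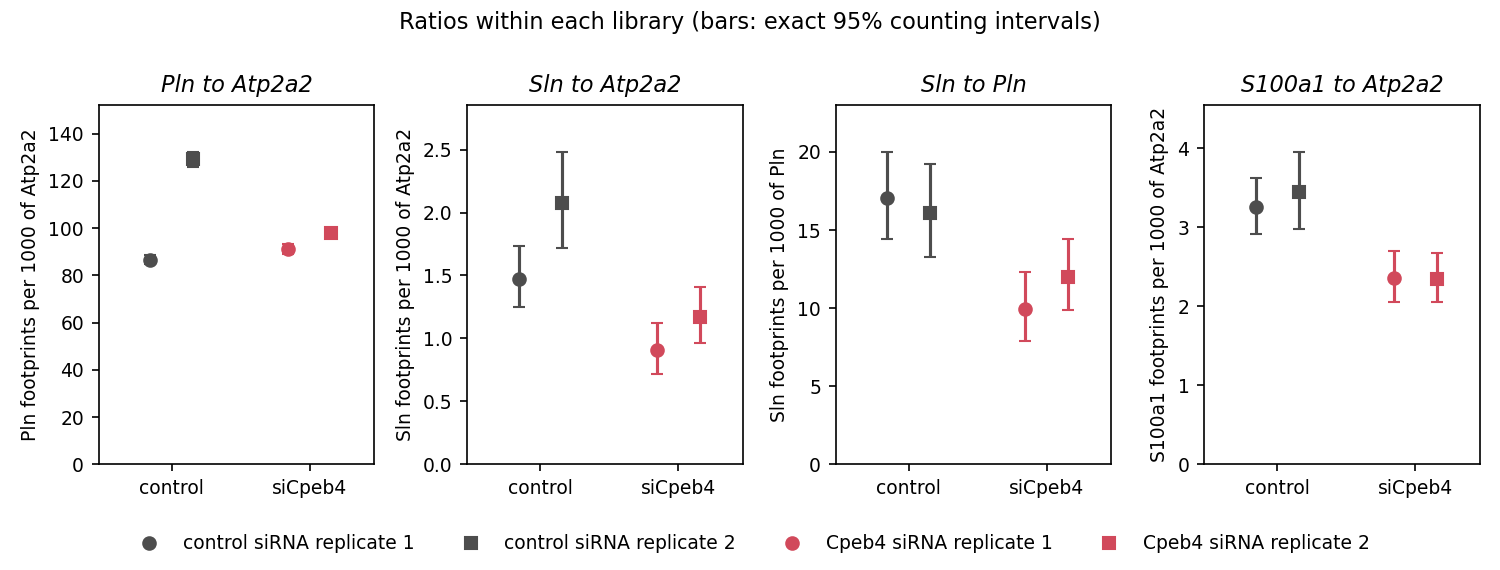
Footprints of 1 gene per 1000 footprints of another in each library (vertical axes from 0; circles and squares for replicates 1 and 2; bars are exact 95% intervals for counting error). The Pln to Atp2a2 ratio of control replicate 2, 129, lay above the other 3 libraries, and both ratios of Sln and the ratio of S100a1 to Atp2a2 were lower in both siCpeb4 libraries.

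Within the release unit, the other ratios to Ryr2 differed less between groups than that of S100a1. Casq2 had 995 and 1088 footprints per 1000 of Ryr2 in controls and 1246 and 1092 after siRNA, a log2 difference of 0.16. Both siCpeb4 libraries lay above both controls, though the nearest libraries of the groups differed by less than their counting error. Trdn had 164 and 163 in controls and 152 and 193 after siRNA, and Jph2 had 100.4 and 110 against 121 and 101. Both overlapped between groups. Asph had 36.6 and 30.4 per 1000 of Ryr2 in controls and 28.4 and 29.9 after siRNA, a log2 difference of -0.19. Both siCpeb4 libraries lay below both controls, though the counting intervals of the nearest libraries overlapped. Hrc per 1000 of Atp2a2 was 12.9 and 17.9 in controls and 15.9 and 12.3 after siRNA, where the groups overlapped (exact permutation p = 0.667).

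**Figure D5:**
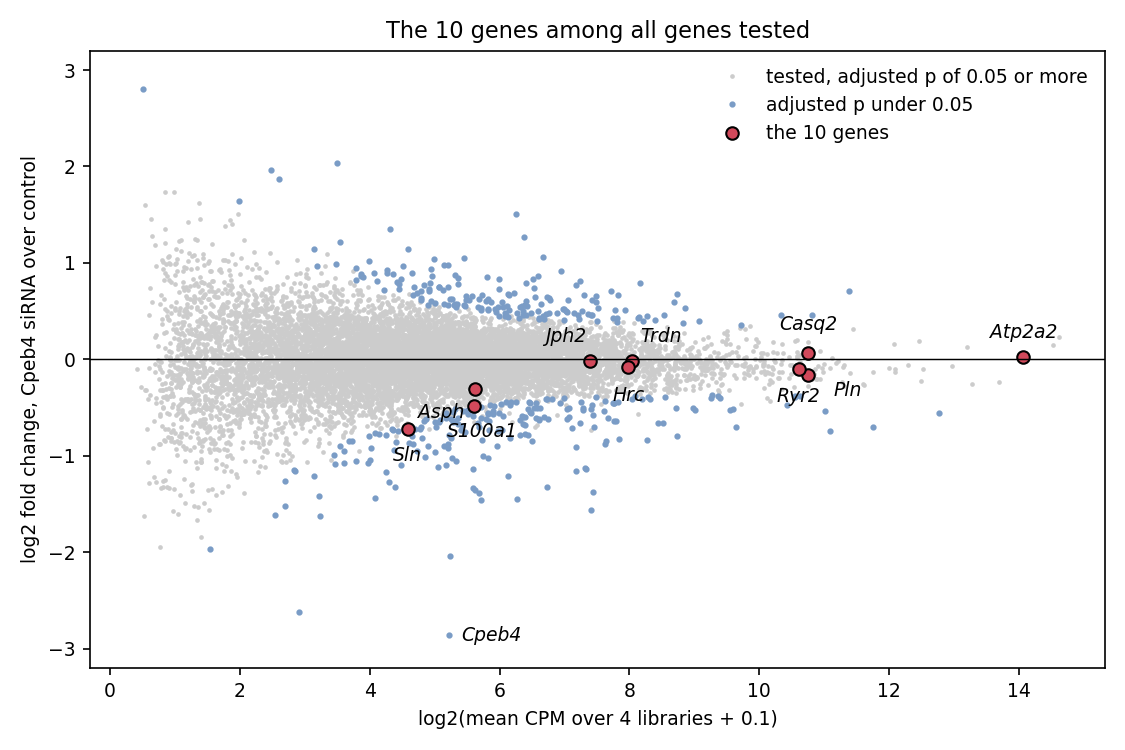
Each of the 11335 genes tested by its mean level over the 4 libraries (horizontal axis, log2 of CPM plus a small constant) and its log2 fold change after Cpeb4 siRNA (vertical axis), with called genes in blue and the 10 calcium store genes in red. Sln and S100a1 lie among genes called as lower, the other 8 lie among uncalled genes, and Cpeb4 is at -2.86.

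Other genes of the calcium system were read from 8 lists with 113 genes, of which 92 were tested. Of these, 3 rose and 1 fell, 4.35% of those tested, beside 3.41% of all genes. Their median log2 fold change was 0.03.

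Among 16 tested partners of the release unit, 1 rose, the ryanodine receptor isoform Ryr3, and 15 did not pass. An unadjusted edgeR p under 0.05 was found for 6 of the 16, beside 16.1% of all genes tested. Ryr3 had 63 and 36 footprints in controls and 79 and 132 after siRNA, which is 10.7 and 10.1 CPM against 16.2 and 22.3 CPM. Its log2 fold change was 0.85 ± 0.23 (SE; edgeR adjusted p = 0.0373), while DESeq2 gave it no adjusted p. The call ended without control replicate 1 (edgeR adjusted p = 0.162), control replicate 2 (0.113) or siCpeb4 replicate 2 (0.3). Casq1, the calsequestrin isoform of skeletal muscle, had 39 and 43 footprints in controls and 66 and 122 after siRNA, a log2 fold change of 0.92 ± 0.28 that did not pass (edgeR adjusted p = 0.0744). With 1 library left out it ran from 0.47 to 1.35, and Casq1 passed without control replicate 2 (edgeR adjusted p = 0.00495) or siCpeb4 replicate 1 (0.0327), and without the low-count filter (0.00408). Tmem38b, a potassium channel subunit of the store, had 0.52 ± 0.21 (edgeR adjusted p = 0.213).

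Paralogs of the 10 genes were otherwise sparse or did not pass. Jph1 had 47 to 115 footprints per library and a log2 fold change of 0.21 ± 0.21 (SE; edgeR adjusted p = 0.678). Ryr1 had between 0 and 6 footprints per library and Atp2a3 between 2 and 4, too few to test. Jph3 and Jph4 had none in any library. Atp2a1 was not matched to a gene by its symbol and is not analysed here.

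Of the pump's other isoforms and regulators, 4 genes were tested and none passed in edgeR, DESeq2 or limma-voom, with 0 at an unadjusted edgeR p under 0.05. Tmx1, a membrane thioredoxin that binds SERCA, had 0.23 ± 0.13 and the phospholamban-binding Hax1 0.10 ± 0.14 (log2 fold change ± SE). The micropeptide genes Mrln, Strit1, Erln and Arln were not matched by symbol and are not analysed here.

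Among 22 kinases, phosphatases and cyclic AMP genes, which set the phosphorylation of phospholamban and RYR2, 1 rose and none fell. Of the 22, 6 had an unadjusted edgeR p under 0.05. Over all genes tested, 16.1% had such a p and 3.41% were called. Adcy6, a main adenylyl cyclase of heart muscle, had 85.1 and 82.2 CPM in controls and 146 and 119 CPM after Cpeb4 siRNA. Its log2 fold change of 0.63 ± 0.12 (SE; edgeR adjusted p = 0.00392) passed with each library left out, with adjusted p up to 0.0493. Adcy5, the other main cardiac cyclase, had 0.34 ± 0.12 (edgeR adjusted p = 0.13), and the phosphatase subunit Ppp1cb, which acts on phospholamban, 0.32 ± 0.11 (edgeR adjusted p = 0.108).

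Of 12 tested genes for IP3 receptors and store-operated entry, Stim2 fell and 11 did not pass. Of the 12, 1 had an unadjusted edgeR p under 0.05, beside 16.1% of all genes tested. STIM2 senses the calcium level of the store. It had 141 and 63 footprints in controls and 52 and 59 after siRNA, or 24.0 and 17.7 CPM against 10.6 and 9.98 CPM. Stim2 had a log2 fold change of -1.07 ± 0.22 (SE; edgeR adjusted p = 0.0062), and the call ended without control replicate 1 (edgeR adjusted p = 0.219) or siCpeb4 replicate 2 (0.064). DESeq2 gave no adjusted p for Stim2. The related sensor Stim1 had 0.29 ± 0.20 (edgeR adjusted p = 0.525). Saraf, which limits store-operated entry, had 0.20 ± 0.12, and the entry channel gene Orai2 -0.69 ± 0.45 on 9 to 18 footprints per library.

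Of 8 tested genes of calcium flux across the surface membrane, the L-type channel Cacna1c rose, with 275 and 297 CPM in controls and 389.8 and 385 CPM after siRNA (log2 fold change 0.41 ± 0.10; edgeR adjusted p = 0.0252). Its call ended without control replicate 1 (edgeR adjusted p = 0.339), control replicate 2 (0.0747) or siCpeb4 replicate 1 (0.0666). The calcium pump Atp2b1 had -0.28 ± 0.12 and the T-type channel Cacna1g 0.21 ± 0.12 (edgeR adjusted p = 0.229 and 0.411). Of the 8 genes, 2 had an unadjusted edgeR p under 0.05, beside 16.1% of all genes tested.

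With the settings of the main test, no gene passed in edgeR among 13 luminal calcium-binding proteins, 11 mitochondrial calcium genes or 6 other S100 genes. In these lists 2, 2 and 1 had an unadjusted edgeR p under 0.05, beside 16.1% of all genes tested. DESeq2 called 1 gene of these lists, Hspa5, and limma-voom none. The reticulum protein Rcn3 (-0.43 ± 0.12, edgeR adjusted p = 0.0553), the chaperone Hspa5 (0.31 ± 0.10, 0.0847) and Hsp90b1 (0.20 ± 0.10, 0.314) had the smallest p of the first list. Rcn3 passed in robust edgeR (adjusted p = 0.0324), without the low-count filter (0.0157), with the replicate number as a block (0.0488) and without control replicate 2 (0.0159), and Hspa5 without the filter (0.0155) and in DESeq2 (0.0449). The mitochondrial uniporter channel Mcu had 0.56 ± 0.16, just short of the threshold (edgeR adjusted p = 0.0507). It passed with upper-quartile scaling (edgeR adjusted p = 0.0418), the library total (0.0457), robust edgeR (0.0415), no low-count filter (0.0206) and the replicate number as a block (0.0359). Micu2 had 0.32 ± 0.12. Vdac1 had 0.41 ± 0.25, with controls at 17.6 and 43.0 CPM. Its value was 1.13 without control replicate 2, where it passed (edgeR adjusted p = 0.000316), and reached -0.19 with another library left out. Of the S100 genes, S100a4 had -0.32 ± 0.11, S100a11 -0.22 ± 0.11 and S100a6 -0.19 ± 0.10 (edgeR adjusted p = 0.14, 0.355 and 0.381). Without siCpeb4 replicate 2, S100a4 had -0.50 and passed (edgeR adjusted p = 0.0235). The S100 list summed to 1007 and 981 CPM in controls and to 819 and 949.6 CPM after siRNA.

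Markers of other cells were read beside the falls of Sln and S100a1. Of 8 atrial markers, 6 were tested and none passed in edgeR, DESeq2 or limma-voom, with 0 at an unadjusted edgeR p under 0.05. Their summed level was 3734 and 3906 CPM in controls and 3373 and 4372 CPM after siRNA, with overlap between groups. Nppa made up the largest part of it, at 2012 and 2109 CPM in controls and 1562 and 2520 CPM after siRNA. Pam was next, at 1006 to 1051 CPM, so the sum mostly follows these genes. The atrial light chains Myl7 and Myl4 had log2 fold changes of 0.12 ± 0.10 and -0.02 ± 0.11, the natriuretic peptide Nppa -0.05 ± 0.14, Pam -0.01 ± 0.10, Nr2f1 -0.41 ± 0.48 and Nr2f2 -0.08 ± 0.21. DESeq2 gave no adjusted p for Nr2f1 and Nr2f2, so they could not pass there. Bmp10 had 1 to 9 footprints per library and Kcna5 0 to 2. The 4 ventricular markers, Myl2 (0.19 ± 0.10), Myl3 (-0.14 ± 0.11), Irx4 (0.23 ± 0.13) and Hey2 (0.42 ± 0.18), did not pass in these tools either, with 1 at an unadjusted edgeR p under 0.05.

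Of 11 tested cardiomyocyte markers, 1 fell, the oxygen-binding protein gene Mb, at 2359 and 3079 CPM in controls and 2064 and 1241 CPM after siRNA (log2 fold change -0.75 ± 0.16; edgeR adjusted p = 0.0108). Mb did not pass in robust edgeR (adjusted p = 0.556) or DESeq2 (adjusted p = 0.553), nor when siCpeb4 replicate 2 was left out of the edgeR fit (adjusted p = 0.194). Fibroblast markers summed to 13170 and 12143 CPM in controls and to 9794 and 9258 CPM after siRNA, with no overlap. Col1a1 and Col3a1 were then left out, after their values were seen. The other fibroblast markers summed to 1184 and 972 CPM in controls and to 823 and 1037 CPM after siRNA, with overlap. Most of this sum was Postn, at 826 and 654 CPM in controls and 572 and 697 CPM after siRNA. Over the whole fibroblast list the median log2 fold change was -0.25, with 7 of the 9 tested markers negative and 2 positive. Of 9 tested, 4 had an unadjusted edgeR p under 0.05 and 1 fell, Col1a1 (log2 fold change -0.55 ± 0.11; edgeR adjusted p = 0.00339), which did not pass without control replicate 1 (0.0553) or siCpeb4 replicate 2 (0.0942). Over all genes tested, 16.1% had an unadjusted edgeR p under 0.05 and 3.41% were called. Among the fibroblast markers, Col1a2 is listed at 0 in every library. Their part in the changes of Sln and S100a1 was not tested. Summed endothelial and leukocyte markers overlapped between groups, at 135 to 166 and 492 to 731 CPM. Smooth muscle markers summed to 5609 and 5697 CPM in controls and to 5913 and 6280.1 CPM after siRNA, with no overlap. Single genes did not overlap between groups for 46% of all genes tested. Of the 6 smooth muscle markers tested, 4 had a positive and 2 a negative log2 fold change, with a median of 0.05. None of the 6 passed in edgeR, DESeq2 or limma-voom (0 at an unadjusted edgeR p under 0.05). Of the skeletal muscle markers 6 were found, 5 of them (Myf5, Myod1, Actn3, Tnni2 and Tnnt3) had no footprint in any library, and the sixth, Myh1, made up 4.40 to 11.5 CPM.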

How the data were processed

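The authors deposited 1 table of raw, unnormalised counts per library, by Ensembl gene. HTSeq 0.12, STAR 2.7 and Bowtie2 are named, with the build Rnor_6.0, per the submitters' processing notes. The sources used here do not give how each was used or the strand setting. Reads without a feature (4.42% to 4.63%) and the other HTSeq summary rows stayed out of totals and tests. Members were matched by exact symbol. CPM are counts scaled to the library total of gene footprints.

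The test was edgeR 4.0.16 in R 4.3.3 (TMM, filterByExpr with a minimum count of 10, group as the only term, two-sided, Benjamini-Hochberg over 11335 genes, called under 0.05). SE came from the F statistic. Alternatives used DESeq2 1.42.0, limma 3.58.1, other scalings and filters, a replicate block and each library left out. With 1 left out, its group's lone library is assumed to vary like the others. DESeq2 gave no adjusted p to some genes, among them Stim2, Ryr3, Casq1 and Myh1, which count as not passing there. The workflow was tested on simulated counts. Replicates differed by more than sampling noise (chi-square per degree of freedom 3.00 and 5.32).

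The members, lists and tests were chosen with earlier results of these data known. Named were the 10 members and Cpeb4, called genes of each pathway list or otherwise up to 3 with the smallest p, paralogs of members, and atrial and ventricular markers. Stim1, Mb, Col1a1, Col3a1, Cep85l and further list genes given beside a called one were named after their values were seen. Levels per coding length and a check of short coding sequences were not run, since no coding lengths were used here. The result of 1 list gene is not reported here.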

Additional observations from a re-analysis of the deposited data

How the results depend on the processing

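The number of the 10 genes called was 2. It was 1 with upper-quartile scaling or limma-voom and 0 with the library total alone or DESeq2, and it ranged from 0 to 1 with 1 library left out. It was 2 in the other settings tried. Over all genes, 386 were called, against 192 in DESeq2 and 606 without the low-count filter, and 212 to 318 with 1 library left out. Among the 10 genes, reversals of sign were all in genes uncalled in the main test. Their log2 fold changes there lay between -0.16 and 0.07. With the library total alone, Trdn was 0.0112 and Jph2 0.0086. With 1 library left out, log2 fold changes ranged from -0.0746 to 0.12 for Atp2a2, -0.388 to 0.11 for Pln, -0.0475 to 0.18 for Casq2, -0.1837 to 0.13 for Trdn, -0.1696 to 0.12 for Jph2 and -0.3888 to 0.18 for Hrc. The cause was not tested.

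With the replicate number as a block, 403 genes and 2 of the 10 were called, with Sln at -0.74 and S100a1 at -0.48. Same-number libraries deviated from their group means with a correlation of -0.11 across genes, so the numbers do not show a pairing. With the numbers crossed, an alternative chosen after seeing the data, 481 genes were called, 2 of them among the 10. For the ratios of Pln and Sln to Atp2a2, the block gives the same values by arithmetic, -0.16 and -0.76. The planned checks on coding length were not run. Sln had 82 to 151 footprints per library and S100a1 199 to 333, which limits the precision of both.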
